A study of Homo sapiens with 6 samples.

Results

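The genes described here encode the subunits of the ATPase module of the EP400 complex and of the related SRCAP complex: EP400, SRCAP, RUVBL1, RUVBL2, DMAP1, YEATS4, VPS72, ACTL6A, ACTR6 and ZNHIT1. They were matched by gene symbol, and all 10 were found among the 60609 genes of the count files and were tested. Poly(A) RNA of K562 cells, an established human leukaemia line, was sequenced in 6 stranded libraries, 3 labelled WT and 3 labelled Delta-TRRAP. In both groups every endogenous EP400 allele carried a C-terminal FKBP12-derived degradation tag, and all cells received dTAGV-1, which triggers loss of the tagged protein, at 500 nM for 24 h. The WT cells carried a wild-type EP400 transgene at the AAVS1 locus and the Delta-TRRAP cells one without the SANT and HD domains, the region that holds TRRAP. Per the study's methods each line was 1 isogenic clone, and both came from 1 tagged clone, so a difference between the clones cannot be told apart from a difference between the transgenes. The p-values measured the spread between libraries of these clones.

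EP400 and SRCAP are large SWI/SNF-related ATPases that exchange the histone H2A of nucleosomes for its variant H2A.Z. In each complex the ATPase binds a ring of the AAA+ proteins RUVBL1 and RUVBL2 and a set of smaller shared subunits. DMAP1 and YEATS4 sit in both complexes, VPS72 is a chaperone that delivers H2A.Z, ACTL6A is an actin-related protein that also serves INO80 and SWI/SNF remodellers, and ACTR6 and ZNHIT1 belong to the SRCAP complex. The EP400 assembly is joined to the TIP60 acetyltransferase, and TRRAP is the scaffold through which transcription factors reach it.

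Library totals ran from 35076835 to 42616061 counts, so that counting error matters chiefly for genes with few counts. Mitochondrial genes took 3.18% to 3.71% of WT counts and 5.07% to 6.24% of Delta-TRRAP counts. The labels call the cells lymphoblasts, but B lymphoid markers summed to 25 to 46 normalized counts per library, whereas 6 erythroid markers summed to between 27876 and 32454 in WT and between 35190 and 37635 in Delta-TRRAP. T lymphoid markers summed to 403 to 479, nearly all of it CD3D (374 to 439). Fibroblast markers summed to between 35 and 54 in WT and between 851 and 988 in Delta-TRRAP, in the latter nearly all of it COL1A2. PDGFRB also rose, from 1.65 to 9.34 mean normalized counts, while DCN and COL1A1 were at similar low counts in both groups. The part of these shifts in the results below was not tested. In bulk RNA, fewer cells of a type and less RNA per cell cannot be told apart.

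Promoter sequences of 3 of the genes are shown first, as examples. Whether promoter letters go with the direction of change was not tested. The promoters of DMAP1, the gene that rose, of RUVBL1, a gene that fell, and of EP400 are given. Each is the 250 bases before the first RefSeq start listed for the gene (GRCh38.p14), 5′ to 3′ on its strand. Capitals mark matches, on either strand, to CCAAT, to the GC box GGGCGG and to the ETS-type motif CCGGAAG.
DMAP1, chr1:44213221-44213470, plus strand: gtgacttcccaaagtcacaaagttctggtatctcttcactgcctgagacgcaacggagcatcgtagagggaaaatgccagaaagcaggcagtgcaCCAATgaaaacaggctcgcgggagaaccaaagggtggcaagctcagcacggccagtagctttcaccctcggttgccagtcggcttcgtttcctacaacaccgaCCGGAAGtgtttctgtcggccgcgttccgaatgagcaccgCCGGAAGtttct
RUVBL1, chr3:128153915-128154164, minus strand: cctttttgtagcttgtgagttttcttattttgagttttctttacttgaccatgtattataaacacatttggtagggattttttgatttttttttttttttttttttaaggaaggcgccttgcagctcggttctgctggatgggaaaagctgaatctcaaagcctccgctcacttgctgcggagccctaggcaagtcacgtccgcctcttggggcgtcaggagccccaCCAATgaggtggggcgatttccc
EP400, chr12:131949692-131949941, plus strand: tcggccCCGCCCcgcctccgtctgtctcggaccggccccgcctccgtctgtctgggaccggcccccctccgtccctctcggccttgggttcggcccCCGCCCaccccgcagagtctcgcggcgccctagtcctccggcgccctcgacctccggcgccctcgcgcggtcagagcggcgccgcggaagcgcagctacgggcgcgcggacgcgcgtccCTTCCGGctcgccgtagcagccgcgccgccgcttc

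Promoters of 8 of the 10 genes were matched in the RefSeq table used here, without VPS72 and ACTL6A. Only the first start listed for a gene was used, and which start the cells used was not determined. The EP400 promoter is that of the endogenous gene, and that of the transgene at AAVS1 was not searched. CCGGAAG, on either strand, was present in 4 of these 8 (EP400, DMAP1, ACTR6 and ZNHIT1), against 8.52% of 35116 promoters of the same length. DMAP1 and ZNHIT1 held it at 2 positions each. GGGCGG was present in 4 (EP400, SRCAP, RUVBL2 and ACTR6), against 42.6% of all promoters. CCAAT was present in 3 (RUVBL1, RUVBL2 and DMAP1), against 32% of all. The E-box CACGTG was present in 0 of 8, against 6.34% of all. None of the 4 motifs contains another. The shares of all promoters are over every start listed, whether or not the gene was tested here. The shares among genes tested, or among abundant ones, were not counted. These are matches of letters and not sites of binding.

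The comparison of Delta-TRRAP with WT asked whether RNA of the subunits of the machine differed when its EP400 could not hold TRRAP. At an adjusted p of 0.01 (edgeR quasi-likelihood F test, Benjamini-Hochberg over 19114 genes), 6 of the 10 genes fell in Delta-TRRAP: RUVBL1, RUVBL2, YEATS4, VPS72, ACTL6A and ACTR6. Of all genes tested, 27.6% fell. DMAP1 alone rose among the 10, where 30.7% of all genes rose. In either direction 7 of the 10 passed, beside 58.3% of all genes. EP400, SRCAP and ZNHIT1 did not pass the test. The median log2 fold change was -0.40 over the 10 genes and 0.03 over all genes tested.

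Among all genes tested, the share that fell was higher for abundant genes. Of the 6804 genes that averaged 1000 normalized counts or more, 45.9% fell and 22.1% rose, with a median log2 fold change of -0.14. None of the 10 reached a fold change of 2 by edgeR, by DESeq2 or by limma-voom, whereas 22.6% of all genes passed with that fold, 6.08% lower and 16.5% higher (6.31% of the abundant ones in either direction). An unadjusted p under 0.05 was reached by 7 of the 10 with each of these tools. The share of all genes under that limit was not counted, though 58.3% passed the stricter adjusted p of 0.01 by edgeR. The groups did not overlap, library by library, for the same 7 genes that passed at 0.01, against 71.1% of all genes (33.7% with Delta-TRRAP lower and 37.4% with it higher). Of the 10 genes, 9 averaged 1000 or more. The groups did not overlap for 78.3% of all such abundant genes (51.7% lower and 26.6% higher).

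**Figure D1:**
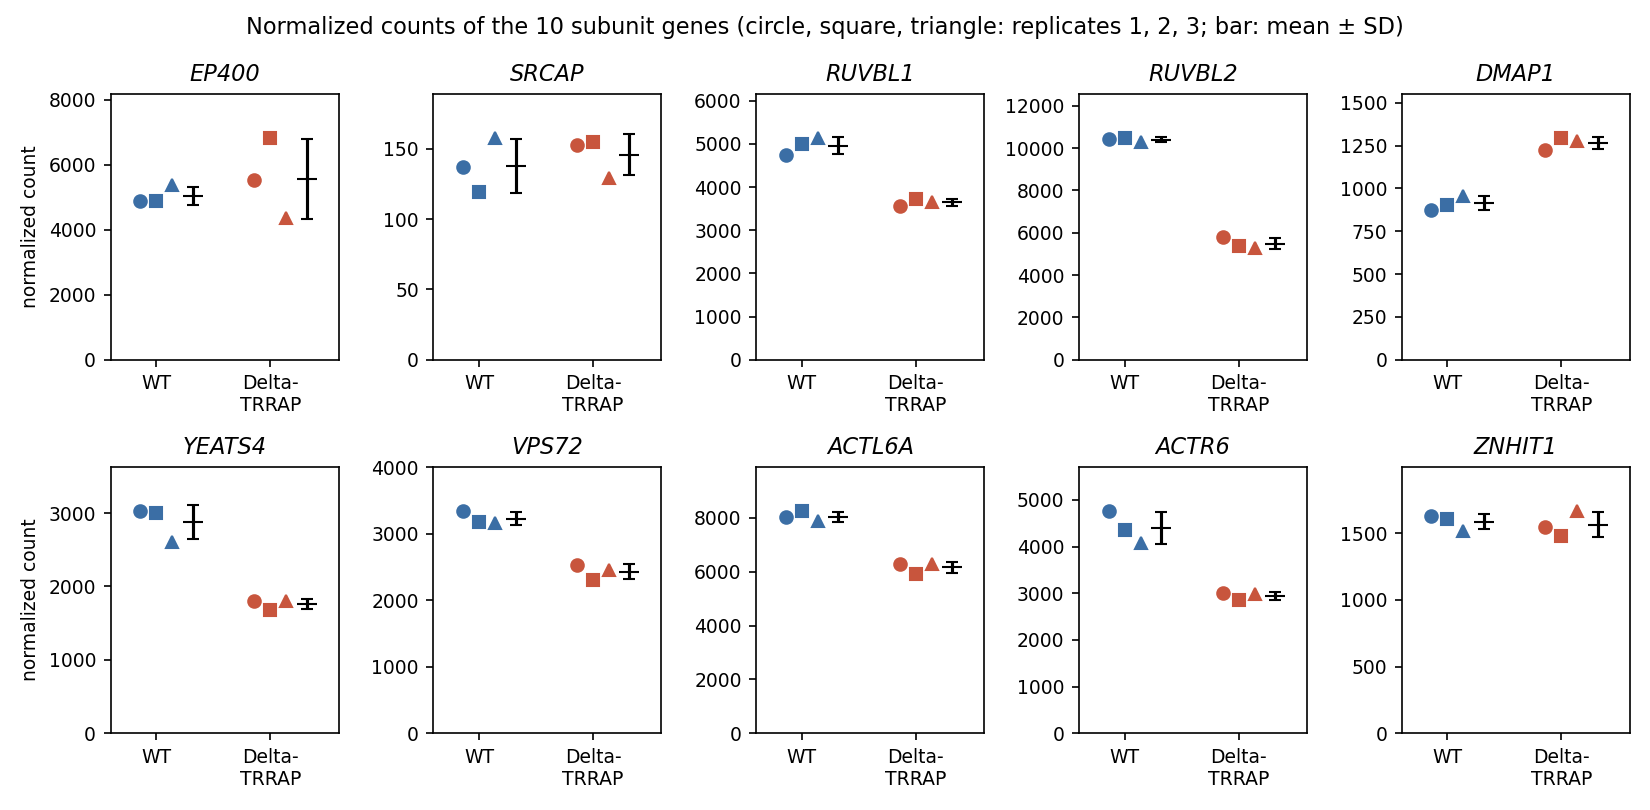
Normalized counts (y axis, from 0, a scale of its own for each gene) of the 10 subunit genes in WT (blue) and Delta-TRRAP (red). Points are libraries and the black bar is the mean ± SD of 3. The groups are apart for RUVBL1, RUVBL2, DMAP1, YEATS4, VPS72, ACTL6A and ACTR6, and overlap for EP400, SRCAP and ZNHIT1.

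EP400 (ENSG00000183495, chr12:131949942-132080460, plus strand, GRCh38) is the ATPase that was tagged and complemented, so its count joins reads from the tagged alleles with reads from the transgene, and the 2 sources cannot be told apart. Normalized counts were 4897, 4897 and 5377 in the WT libraries and 5533, 6833 and 4357 in Delta-TRRAP replicates 1, 2 and 3. The Delta-TRRAP libraries lay on both sides of the WT ones and the groups overlapped. Its log2 fold change was 0.14 ± 0.11 (SE, n = 3 per group; adjusted p = 0.272 by edgeR), with a 95% interval of -0.09 to 0.38. This RNA level says nothing of the amount of EP400 protein after dTAGV-1.

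The EP400 value changed with the libraries and the scaling used. Leaving out Delta-TRRAP replicate 3 gave a log2 fold change of 0.29 (edgeR adjusted p = 0.00149), and leaving out Delta-TRRAP replicate 2 gave -0.03 (edgeR adjusted p = 0.768). With all libraries it was 0.27 (edgeR adjusted p = 0.0357) with library size alone, 0.24 with upper quartile scaling and 0.21 with a minimum mean of 50. Delta-TRRAP replicates 2 and 3 differed by 0.65 in log2 normalized count at EP400, and 0.926% of genes averaging 100 or more differed by more. In WT, the libraries furthest apart at EP400 differed by 0.13.

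The difference between the same replicates ran with exon length. Its median was -0.11 for 1227 genes with under 2 kb of annotated exon, -0.06 for 2 to 4 kb, 0.03 for 4 to 8 kb, 0.11 for 8 to 16 kb and 0.16 for the 526 genes over 16 kb. EP400, with 18041 exon bases, lay well above the median of its class, and SRCAP, with 13863, was 0.26 higher in replicate 2 than in replicate 3. YEATS4 and VPS72, with 1781 and 1764 exon bases, were at -0.10 and -0.09, close to the median of theirs. ZNHIT1, with 5013 exon bases, was at -0.17 and RUVBL2, with 3519, at 0.03, on the other side of 0 from the medians of their classes. With classes by longest transcript, of 12289 bases for EP400, the median was 0.22 for 8 to 16 kb and 0.16 over 16 kb. By that length ZNHIT1 (3958 bases) lay on the same side of 0 as the median of its class, -0.03. RUVBL2 (1853 bases) still lay on the other side from the median of its class, -0.10. Whether length has a part in the EP400 value was not tested.

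**Figure D2:**
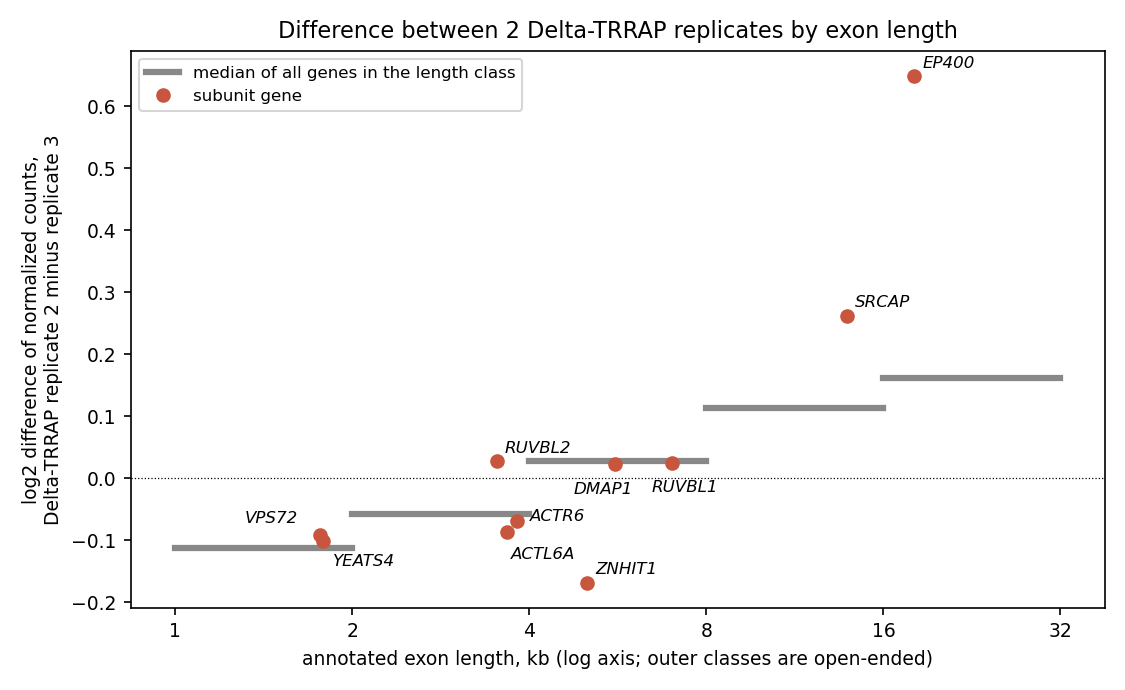
Log2 difference of normalized counts between Delta-TRRAP replicates 2 and 3 (y axis) against annotated exon length in kb (x axis, log scale). Grey bars are medians of all genes averaging 100 normalized counts or more in a length class and rise from -0.11 to 0.16. Red points are the subunit genes, with EP400 at 0.65.

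The genes whose 6 centred log2 counts lay nearest to those of EP400 were NUP214, a nucleoporin, HEATR5B and KIAA1109, at root mean square differences of 0.0214, 0.0254 and 0.0268 among 11458 genes over 6 libraries. Their annotated exons added up to 24733, 8238 and 45272 bases. Their log2 fold changes were 0.13, 0.12 and 0.11, and each was highest in Delta-TRRAP replicate 2 and lowest in replicate 3. SRCAP was the nearest of the other subunit genes, at 0.142, at rank 422 of the 11458 genes.

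A part of EP400 has copies elsewhere. Of the 50-base windows of its canonical transcript of 12289 bases, 6.57% also occurred in another gene, chiefly the neighbouring pseudogene EP400P1. Since only uniquely mapping reads were kept, reads that lie wholly in such copied sequence could not be counted. EP400P1 itself had 766 to 866 raw counts in the WT libraries and between 808 and 942 in Delta-TRRAP, a log2 fold change of 0.12 ± 0.07 (SE; edgeR adjusted p = 0.139). The transcripts of the 8 genes other than EP400 and SRCAP shared 0 such windows with other genes.

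SRCAP (ENSG00000080603, chr16:30698209-30741409, plus strand), the ATPase of the sister complex, had far fewer counts than EP400. Raw counts were 135, 124 and 155 in WT and 156, 159 and 122 in Delta-TRRAP, and the exact Poisson 95% intervals of the libraries ran from 101 to 186, for counting error only. Normalized counts were 137, 119 and 158 in WT and 153, 155 and 129 in Delta-TRRAP, so the groups overlapped. SRCAP had a log2 fold change of 0.08 ± 0.13 (SE, n = 3 per group; adjusted p = 0.569 by edgeR), with a 95% interval of -0.19 to 0.36. A change as large as that of DMAP1 or of the genes that fell lay outside this interval.

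The SRCAP count rests on a small part of the gene. In GENCODE release 44, 73.1% of its exon bases (10136 of 13863) also lie in exons of other genes on the same strand, and 1.95% of 19041 genes tested have a share of at least 70%. The main partner is AC106886.5, a gene annotated as protein coding that is also among the genes of the count files, and AC106886.5, TMEM265 and AC106886.2 had 0 counts in all 6 libraries. In union mode a read that fits exons of more than 1 gene is assigned to none. Of the canonical SRCAP transcript of 11724 bases and 34 exons, 1588 bases (13.5%) are in no other gene.

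Those bases fall into 7 stretches, of 72, 74, 263 and 3 bases at the 5′ end, 288 and 186 bases in the body of the gene and 702 bases at the 3′ end. The stretch of 186 bases lies within an exon of the canonical transcript. It is shown here in lower case because it is among the few places where a read could be counted for SRCAP alone. It is labelled below as a private coding exon, though whether it fills its exon was not checked.
SRCAP private coding exon, chr16:30722563-30722748, GRCh38, plus strand: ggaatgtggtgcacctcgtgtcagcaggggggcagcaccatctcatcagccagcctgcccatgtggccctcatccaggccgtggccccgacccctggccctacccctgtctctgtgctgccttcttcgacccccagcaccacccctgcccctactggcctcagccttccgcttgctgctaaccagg
Other SRCAP transcripts add further stretches found in no other gene, among them 1180 and 487 bases. The count is therefore not a measure of how much SRCAP RNA the cells held, and the fold change covers only such stretches. The counts were made on GENCODE release 32, whose gene models were not used here.

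The genes nearest to SRCAP in pattern were DUXAP9, a transcribed pseudogene, UBE2V1, a ubiquitin-conjugating enzyme variant, and MAST4, a kinase, at root mean square differences of 0.0398, 0.0445 and 0.0525. Like SRCAP, all had their lowest WT count in replicate 2 and their highest in replicate 3. At 119 to 159 normalized counts, DUXAP9 and SRCAP were of like depth.

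RUVBL1 and RUVBL2 form the ring that both ATPases need for assembly, and both fell. RUVBL2 (ENSG00000183207, chr19:48993562-49015970, plus strand) had normalized counts of 10455, 10489 and 10288 in WT and 5786, 5379 and 5278 in Delta-TRRAP. Every Delta-TRRAP library was far below every WT library, and the spread within a group was small. This was a log2 fold change of -0.93 ± 0.05 (SE, n = 3 per group; adjusted p = 4.44e-10 by edgeR), the furthest from 0 of the 10, and 7.95% of all genes tested had a lower value.

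RUVBL1 (ENSG00000175792, chr3:128064778-128153914, minus strand) had normalized counts of 4744, 4993 and 5142 in WT and 3565, 3717 and 3654 in Delta-TRRAP. The groups were apart, by less than for RUVBL2. The log2 fold change was -0.44 ± 0.05 (SE, n = 3 per group; adjusted p = 1.42e-06 by edgeR), a level 0.735 of that in WT.

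The genes most like RUVBL1 over the 6 libraries were SEPTIN6, a septin of the cytoskeleton, MINDY2, a deubiquitinase, and PWWP3A, at root mean square differences of 0.0124, 0.0166 and 0.0183. Those most like RUVBL2 were EFHD2, PHF19, a Polycomb-associated factor, and KCNK5, a potassium channel, at 0.0255, 0.0272 and 0.0277. The subunit gene nearest to RUVBL1 was ACTL6A, at 0.0683 and rank 604 of the 11458 genes. The subunit gene nearest to RUVBL2 was YEATS4, at 0.133 and rank 770.

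Among the subunits that both complexes hold, DMAP1 rose and YEATS4, VPS72 and ACTL6A fell. DMAP1 (ENSG00000178028, chr1:44213455-44220681, plus strand) had normalized counts of 875, 904 and 956 in WT and 1224, 1295 and 1275 in Delta-TRRAP. All Delta-TRRAP libraries were above all WT libraries. On the log2 scale the change was 0.47 ± 0.06 (SE, n = 3 per group; adjusted p = 2.5e-06 by edgeR), 1.39 times the WT level.

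YEATS4 (ENSG00000127337, chr12:69359710-69390870, plus strand), the YEATS-domain reader also called GAS41, had normalized counts of 3025, 3000 and 2613 in WT and 1799, 1683 and 1805 in Delta-TRRAP. WT replicate 3 was the lowest of its group and still above every Delta-TRRAP library. YEATS4 had a log2 fold change of -0.71 ± 0.06 (SE, n = 3 per group; adjusted p = 7.44e-08 by edgeR), a level 0.612 of that in WT.

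VPS72 (ENSG00000163159, chr1:151176304-151195321, minus strand), the H2A.Z chaperone YL1, had normalized counts of 3339, 3178 and 3160 in WT and 2535, 2306 and 2457 in Delta-TRRAP. Its groups were apart, and its log2 fold change was -0.41 ± 0.05 (SE, n = 3 per group; adjusted p = 5.77e-06 by edgeR). ACTL6A (ENSG00000136518, chr3:179562886-179588407, plus strand), also called BAF53A, had normalized counts of 8021, 8247 and 7883 in WT and 6293, 5928 and 6294 in Delta-TRRAP. Its log2 fold change was -0.38 ± 0.05 (SE, n = 3 per group; adjusted p = 6.01e-06 by edgeR), the smallest of the 6 that fell. ACTL6B, the neuronal paralog of ACTL6A, had 0 to 2 counts per library.

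Of the genes for subunits of the SRCAP complex alone, ACTR6 fell and ZNHIT1 did not pass the test. ACTR6 (ENSG00000075089, chr12:100199122-100241865, plus strand), the actin-related protein ARP6, had normalized counts of 4755, 4345 and 4076 in WT and 3002, 2846 and 2984 in Delta-TRRAP. The WT libraries were spread more widely than the Delta-TRRAP ones, without overlap between the groups. Its log2 fold change was -0.58 ± 0.06 (SE, n = 3 per group; adjusted p = 4.34e-07 by edgeR), a level 0.670 of that in WT.

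ZNHIT1 (ENSG00000106400, chr7:101218165-101224190, plus strand), a zinc-finger HIT protein, had normalized counts of 1630, 1608 and 1520 in WT and 1546, 1481 and 1664 in Delta-TRRAP. The highest and the lowest library were both Delta-TRRAP. ZNHIT1 had a log2 fold change of -0.02 ± 0.06 (SE, n = 3 per group; adjusted p = 0.758 by edgeR), with a 95% interval of -0.14 to 0.10. Its sign changed with the scaling, to 0.11 with library size alone.

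Ratios between subunits of the same library do not depend on how libraries were scaled. The count ratio of RUVBL1 to RUVBL2 was 0.454, 0.476 and 0.4998 in WT and 0.616, 0.691 and 0.692 in Delta-TRRAP, 1.40 times higher. The ratio of ACTR6 to ZNHIT1 was 2.92, 2.70 and 2.68 in WT and 1.94, 1.92 and 1.79 in Delta-TRRAP. The ratio of DMAP1 to YEATS4 was 0.289, 0.301 and 0.366 in WT and 0.680, 0.769 and 0.706 in Delta-TRRAP, 2.26 times higher. For these 3 pairs the groups did not overlap, and the two-sided exact permutation test gave p = 0.1, the smallest that 3 against 3 allows (adjusted p = 0.167 over 5 pairs), so none could reach 0.05.

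The other pairs gave overlapping ratios. EP400 to SRCAP was 35.8, 41.2 and 34.1 in WT and 36.2, 44.1 and 33.8 in Delta-TRRAP (exact permutation p = 0.7), and reads as a ratio of counts only, given how little of SRCAP is counted. VPS72 to ACTL6A was 0.416, 0.385 and 0.401 in WT and 0.403, 0.389 and 0.390 in Delta-TRRAP (exact permutation p = 0.7). Both genes of this pair had fallen, VPS72 by 0.41 and ACTL6A by 0.38 on the log2 scale.

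**Figure D3:**
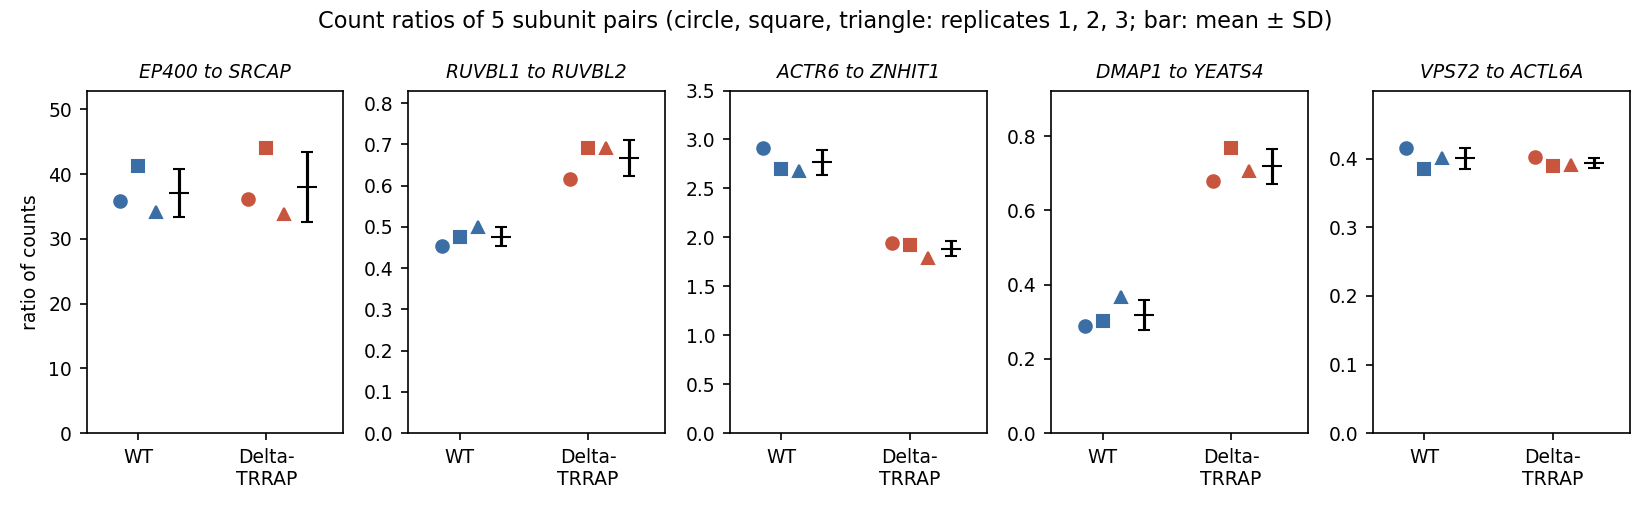
Ratio of counts (y axis, from 0) of 5 pairs of subunit genes in WT (blue) and Delta-TRRAP (red). Points are libraries and the black bar is the mean ± SD of 3. RUVBL1 to RUVBL2 and DMAP1 to YEATS4 are higher, and ACTR6 to ZNHIT1 lower, in all 3 Delta-TRRAP libraries.

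Levels were compared between genes as CPM (counts scaled to the TMM-adjusted library size) per kb of annotated exon, as mean ± SD of 3 libraries. In WT, RUVBL2 was highest at 76.1 ± 0.783, followed by ACTL6A at 56.4 ± 1.29, VPS72 at 47.0 ± 1.43, YEATS4 at 41.6 ± 3.33, ACTR6 at 29.6 ± 2.31 and RUVBL1 at 18.2 ± 0.739. ZNHIT1 at 8.14 ± 0.299, EP400 at 7.21 ± 0.395 and DMAP1 at 4.19 ± 0.189 closed the order, and all neighbours in it had ranges apart. The EP400 level, by any length, joins RNA of the tagged alleles and of the transgene, so it is not that of 1 locus. The same EP400 length was used in both groups, although the Delta-TRRAP transgene lacks the SANT and HD domains. SRCAP, at 0.256 ± 0.0360, was left out of the order because most of its exon bases could not be counted. In Delta-TRRAP, ACTL6A at 43.3 ± 1.48 and RUVBL2 at 40.1 ± 1.96 headed the order with overlapping ranges, and those of ZNHIT1 (8.02 ± 0.476) and EP400 (7.94 ± 1.77) overlapped as well.

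The order depends on the length used. Per kb of canonical transcript, a length chosen after the data were seen, RUVBL2 was at 173 ± 1.78 and ACTL6A at 112 ± 2.55 CPM per kb in WT, again first and second. RUVBL1 took the third place at 67.2 ± 2.72, with a range overlapping that of ACTR6 at 65.0 ± 5.06, and ZNHIT1 to the fifth at 56.0 ± 2.06, with a range overlapping that of VPS72 at 54.9 ± 1.67. Annotated exons added up to 6998 bases for RUVBL1 and 5013 for ZNHIT1, against canonical transcripts of 1899 and 728 bases. DMAP1 and EP400 were lower than these, at 13.5 ± 0.607 and 10.6 ± 0.580. All SRCAP counts divided by the 1588 private bases of its canonical transcript gave 2.23 CPM per kb in WT and 2.36 in Delta-TRRAP. Private stretches of its other transcripts were left out of that length, so these levels may be too high.

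Because each line was 1 clone, the genes around each subunit gene were described as well. Over the 11459 genes averaging 100 normalized counts or more, the median log2 fold change was -0.09. RUVBL2 lies in a stretch of chromosome 19 where 39 of 50 such genes within 1 Mb had a log2 fold change below 0, with a median of -0.37. RUVBL2 was lower than all but 5 of these 50. Within 5 Mb the median was -0.33 over 181 genes.

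Around the other genes that fell, the medians within 1 Mb ran from -0.24 to 0.17. The 5 genes around ACTR6 were centred on 0.17 (median log2 fold change) and none was below 0, where ACTR6 was at -0.58, although the median turned to -0.13 over 19 genes within 2 Mb. Medians were -0.24 over 11 genes around YEATS4, -0.24 over 11 around ACTL6A, -0.09 over 10 around RUVBL1 and -0.005 over 37 around VPS72. DMAP1 was higher than 20 of 23 neighbours, whose median was 0.01. For the genes that did not pass the test, the medians were -0.08 over 14 genes around EP400, -0.06 over 49 around SRCAP and -0.24 over 30 around ZNHIT1. The EP400 transgene lies at AAVS1, so these 14 genes surround only the tagged alleles. Gene copy number was not measured, so its part was not tested.

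**Figure D4:**
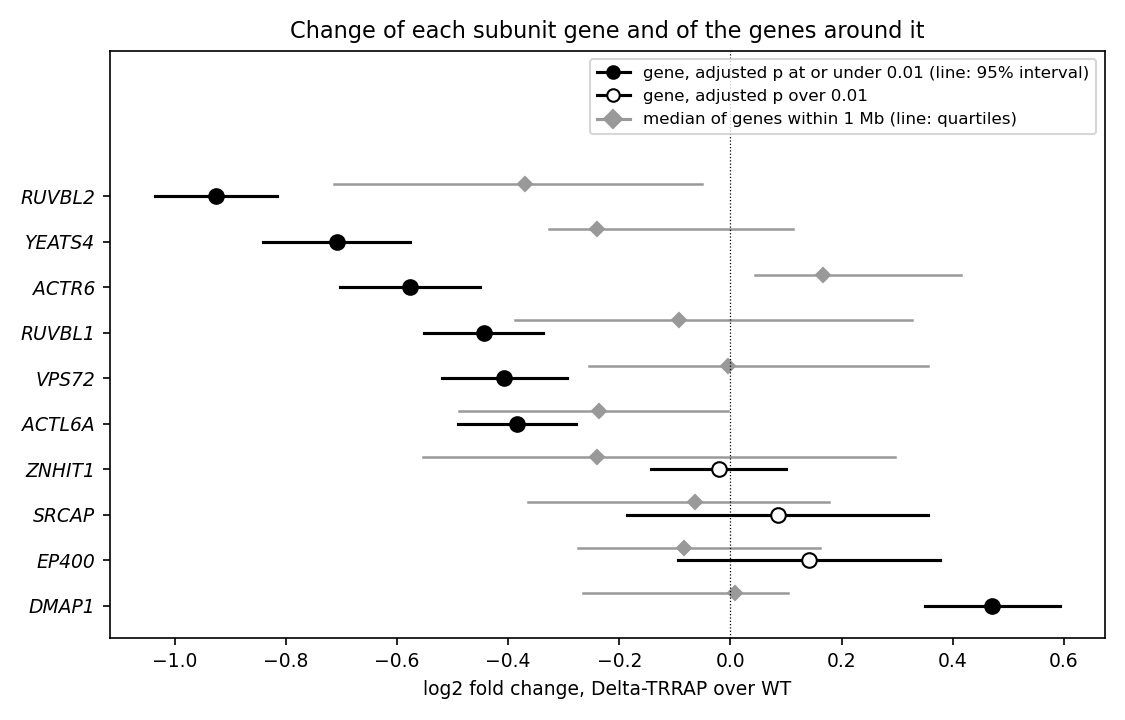
Log2 fold change of each subunit gene, Delta-TRRAP over WT (x axis), as a black circle with its 95% interval, filled where the edgeR adjusted p is at or under 0.01. Grey diamonds are the median of genes within 1 Mb, with their quartiles. RUVBL2 at -0.93 lies below a neighbourhood whose median is -0.37, and ACTR6 at -0.58 opposite to one at 0.17.

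RUVBL1, RUVBL2 and ACTL6A also serve other assemblies, and genes of 4 related lists were counted in the same fit. Of 12 INO80 complex genes, 5 fell, 0 rose and 7 did not pass, with a median log2 fold change of -0.21. ACTR5, the actin-related protein of INO80, was at -1.36 ± 0.07, YY1 at -0.59 ± 0.05, the deubiquitinase UCHL5 at -0.45 ± 0.05 and INO80E at -0.51 ± 0.06 (SE). The ATPase gene INO80 was at -0.25 ± 0.08 (SE) and did not pass (edgeR adjusted p = 0.012).

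The R2TP and TELO2 cochaperones work with RUVBL1 and RUVBL2 in assembling large complexes, and TRRAP and related kinases are among their clients. Of 11 such genes, 8 fell and 3 rose, with a median log2 fold change of -0.61. RPAP3 was at -0.78 ± 0.05, URI1 at -0.70 ± 0.05, the prefoldin PFDN2 at -0.82 ± 0.07 and PIH1D1 at -0.62 ± 0.05 (SE). The 3 that rose were TTI2 (0.61), WDR92 (0.28) and UXT (0.24).

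H2A.Z, the histone that these ATPases deposit, is encoded by H2AFZ and H2AFV. Of 5 genes of H2A.Z and its chaperones, 4 fell and NAP1L1 did not pass. H2AFZ went from 27407 ± 1882 to 15623 ± 1112 normalized counts (SD, n = 3 per group), a log2 fold change of -0.81 ± 0.06 (SE; edgeR adjusted p = 2.2e-08). H2AFV was at -0.70 ± 0.05, ANP32E, the chaperone that removes H2A.Z, at -0.64 ± 0.05, and NAP1L4 at -0.22 ± 0.05 (SE).

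Of 12 other subunit genes of the TIP60 complex, 7 fell, 2 rose and 3 did not pass, with a median log2 fold change of -0.20. MRGBP was at -1.50 ± 0.06, MEAF6 at -0.49 ± 0.05 and MBTD1 at -0.40 ± 0.05, while the bromodomain subunit BRD8 was at 0.62 ± 0.06 (SE). The TRRAP gene itself was at 0.05 ± 0.11 (SE; edgeR adjusted p = 0.713). The counts of all 4 lists stand beside the 27.6% of all genes that fell and 30.7% that rose, and beside the 45.9% and 22.1% of abundant genes.

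**Figure D5:**
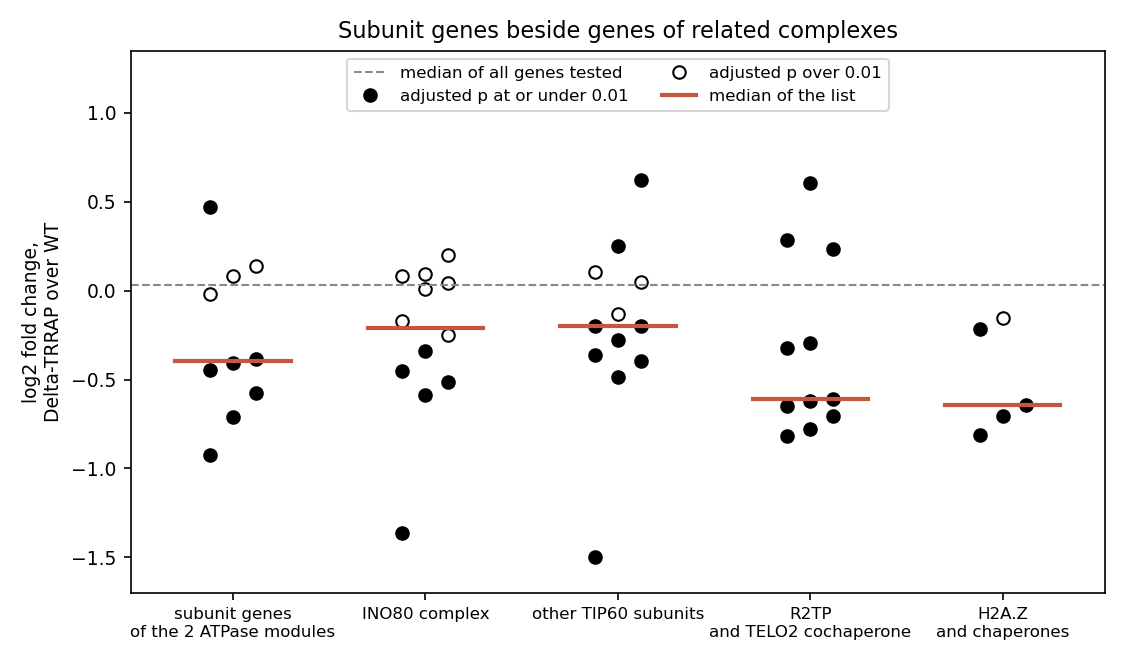
Log2 fold change, Delta-TRRAP over WT (y axis), of the subunit genes and of 4 related lists. Points are genes, filled where the edgeR adjusted p is at or under 0.01. Red lines are list medians (-0.40, -0.21, -0.20, -0.61 and -0.64 from left to right) and the dashed line is the median of all genes tested, 0.03.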

How the data were processed

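RNA-seq libraries of 2 groups of 3 were grouped by their titles. The authors deposited raw counts per gene. They aligned reads with STAR (genome hg38), kept those with a single position, and counted them with HTSeq 2.0.2, reverse-stranded, in union mode, on GENCODE release 32. The counts are not normalized and carry no summary of unassigned reads. A deposited table of normalized values (with 3 columns of another condition) and the authors' comparison table (fold changes and p-values) were not used.

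Counts were scaled by TMM and tested with edgeR 4.0.16 in R 4.3.3 (quasi-likelihood F test, group as the only term) over the 19114 genes averaging 5 normalized counts or more, with Benjamini-Hochberg adjustment. Normalized counts are counts divided by each scaled library size, after these sizes were set to a geometric mean of 1. The procedure was tested on simulated data. Genes named are the 10 subunit genes, for 4 of them the 3 genes with the most similar profile (pseudocount of 1), and up to 4 genes with the smallest p of each related list. INO80, NAP1L1, TRRAP and the 3 cochaperone genes that rose were named after their values were seen. The subunit genes and all lists were chosen with earlier results of these data known. Positions, lengths and overlaps are from GENCODE release 44 on GRCh38 and promoters from RefSeq. Copied sequence was sought in windows of 50 bases. Replicates of a group differed by more than sampling noise (chi-square per degree of freedom of 4.93 to 15.5).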

Additional observations from a re-analysis of the deposited data

How the results depend on the processing

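Scaling (RLE, upper quartile, library size), test (DESeq2 1.42.0, limma-voom 3.58.1), filter, replicate block and leaving out each library were changed in turn, 14 alternatives per gene. The calls of the 6 genes that fell and of DMAP1 held in all 14, with the largest adjusted p at 0.000401 (ACTL6A). With a fold change of at least 2 required, the counts of 6 lower and 1 higher became 0 and 0. Leaving out a library left 6 lower, and 1 or 2 higher, the second being EP400 at 0.29 without Delta-TRRAP replicate 3. Signs turned only for genes that had not passed: EP400 to -0.0261 without Delta-TRRAP replicate 2, SRCAP to -0.0229 without WT replicate 2 (0.1866 without WT replicate 3, and at most 0.2178, with library size alone), and ZNHIT1 to 0.0804 with upper quartile scaling, 0.11 with library size alone, 0.0519 with a minimum mean of 50 and 0.0222 without Delta-TRRAP replicate 2 (-0.0692 without Delta-TRRAP replicate 3). Library size alone moved the median of all genes by 0.14. The log2 ratio of EP400 to SRCAP (0.03) ran from -0.0787 to 0.1137 and that of VPS72 to ACTL6A (-0.02) from -0.0521 to 0.0035 when a library was left out. Same-numbered libraries did not deviate together (correlations 0.087, -0.084 and -0.192), so no pairing by number was seen. With 3 libraries per group, a pairing could be missed. Under the replicate block the counts stayed at 6 lower and 1 higher. Of 122 alternative levels per kb 53 moved by more than the replicate SD, most with the length used, and of 90 alternative neighbour medians 25 moved. The cause of these changes was not tested.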
